A study of Mus with 6 samples.

Results

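Nearly all mitochondrial proteins are made in the cytosol from nuclear genes and must be carried across the mitochondrial membranes. Precursors enter through the TOM complex of the outer membrane and are then sorted to the SAM complex, to the small TIM chaperones and the TIM22 carrier translocase, or to the TIM23 translocase with its ATP-driven motor, after which a matrix peptidase removes the targeting sequence. Neurons depend on this route at a distance from the cell body, since mitochondria in axons and dendrites keep importing proteins. The genes described here are this machinery. They were taken by name and biotype from a deposited table of gene FPKM (read fragments counted on a gene, divided by its length and by the size of the library): protein-coding genes named Tomm or Timm with a number, with Pam16, Dnajc15, Dnajc19, Samm50, Mtx1, Mtx2, Grpel1, Hspa9, Pmpca and Pmpcb. The rule found 35 of the 54532 genes in the table, and no measured value entered it.

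The libraries came from the basolateral amygdala of female mice, 3 labelled Cntnap4 knockout (KO) and 3 labelled wild type (WT). Cntnap4 encodes a neurexin-related membrane protein known from interneurons. The labels name no allele, strain or age, and do not say whether each library is 1 animal, so a p-value here sets KO against WT over the spread of these libraries, which may be technical. The series title names a Lactobacillus, but none of the 6 samples is labelled as given a bacterium.

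Cntnap4 stood at 1.18 ± 0.10 FPKM in KO and 3.20 ± 0.92 FPKM in WT (SD, n = 3 each), with no overlap. Recovered reads per library numbered 15933029 to 17789798. Markers of the basolateral amygdala were present in every library, and their sum over 5 genes was 101.7 to 116 FPKM in KO and 87.6 to 98.6 FPKM in WT, with 1 of 5 lower on average. That one was Lmo3, at 20.8 ± 4.28 FPKM in KO and 41.0 ± 18.1 FPKM in WT without overlap, while Neurod6, at 30.02 ± 3.67 FPKM in KO and 14.1 ± 6.13 FPKM in WT, and Tbr1, at 46.1 ± 6.43 FPKM in KO and 28.5 ± 7.93 FPKM in WT, lay higher without overlap. Several marker sums for other cells moved with genotype. Sums over 5 astrocyte markers were 111 to 145 FPKM in KO and 151 to 208 FPKM in WT, with 5 of 5 lower on average. Each of these 5 overlapped between the groups when taken singly, and Gfap ran from 31.8 to 92.8 FPKM in WT. Sums over 5 microglial markers were 60.5 to 75.9 FPKM in KO and 87.5 to 119.7 FPKM in WT, with 5 of 5 lower and 3 without overlap. The 4 oligodendrocyte markers summed to 350 to 490 FPKM in KO and 176 to 507 FPKM in WT, with 0 of 4 lower on average. The 2 oligodendrocyte precursor markers summed to 6.27 to 8.72 FPKM in KO and 9.71 to 12.4 FPKM in WT, and 3 meningeal markers to 4.13 to 6.74 FPKM in KO and 6.09 to 17.3 FPKM in WT, all 5 of them lower on average. The sum over 7 neuronal markers was 1182 to 1376 FPKM in KO and 1019 to 1178 FPKM in WT, with 2 of 7 lower on average. The 4 striatal markers summed to 29.4 to 141 FPKM in KO and 39.2 to 348 FPKM in WT, highest in KO3 and WT3, and 4 hypothalamic markers to 0.39 to 3.15 FPKM in KO and 2.17 to 21.99 FPKM in WT, highest in WT1 and WT2. No listed marker was at 0 in all libraries. In bulk tissue, fewer cells of a type and less RNA per cell cannot be told apart, and the part of these shifts in the results below was not tested.

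Of the 35 import genes, 32 had a mean of at least 1 FPKM and were tested, on values of log2(FPKM + 1) with limma; 3 were below that level. None of the 32 passed an adjusted p of 0.05, a level that 0.00764% of all 13087 tested genes passed (1 gene, which no longer passed with the replicate number as a block). Cntnap4, the gene named in the KO label, did not pass this level either (log2 fold change -0.92, SE 0.18, adjusted p = 0.302). Failing it is thus no sign that a gene is unchanged. At an unadjusted p under 0.05 there were 3 import genes lower in KO (Tomm7, Timm13 and Timm8b) and 0 higher, where 7.25% of all tested genes were lower and 7.05% higher. In 6 of the 32, every KO library lay below every WT library, against 10.1% of all tested genes, and in 1 every KO library lay above, against 11.9%. The remaining 25 overlapped between the groups. On average 25 of the 32 had a negative log2 fold change, as did 48.7% of all tested genes, and the median was -0.06 for the import genes and 0.01 for all tested genes. With libraries rescaled to 1 common sum, 19 of the 32 were negative, the medians were -0.0029 for the import genes and 0.06 for all tested genes, and the genome-wide split at an unadjusted p under 0.05 was 582 lower and 1223 higher, in place of 949 lower and 923 higher.

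**Figure D1:**
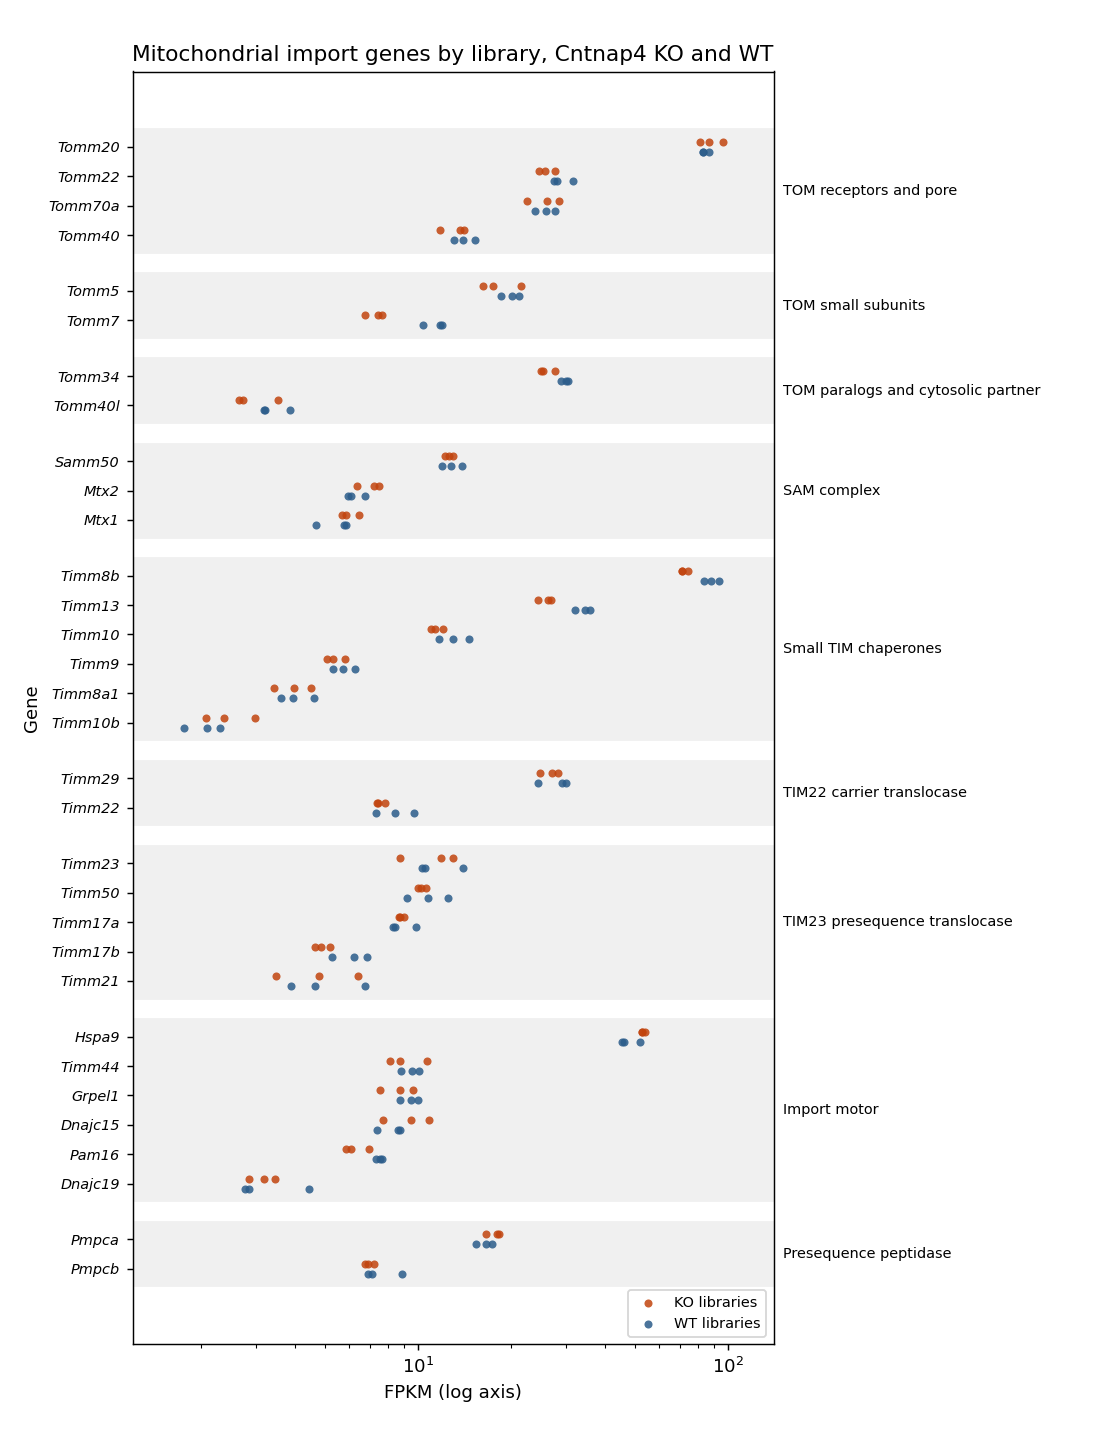
FPKM on a log axis for the 32 tested import genes, grouped by the complex they serve, with each point 1 library (KO above WT in each row). Tomm20, Timm8b and Hspa9 sit at the right end and Timm10b at the left; the 3 KO points of Tomm7, Timm13 and Timm8b lie clear of the WT points.

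Levels differed more between genes than between genotypes, with means over all libraries of 2.26 FPKM for Timm10b to 86.2 FPKM for Tomm20. FPKM is a level per length, here the length listed for each gene, so levels of different genes can be compared only roughly. On average 96.8 to 7166 reads per library stood behind the tested members. The 5 genes with the highest level in KO were Tomm20 at 88.2 ± 7.75 FPKM, Timm8b at 72.2 ± 1.82, Hspa9 at 53.2 ± 0.76, Timm29 at 26.6 ± 1.78 and Tomm22 at 26.0 ± 1.56 (SD, n = 3). Timm29, Tomm22, Tomm34 (26.0 ± 1.49), Timm13 (25.8 ± 1.27) and Tomm70a (25.7 ± 3.06) followed each other in KO within their spread.

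The receptors and the pore of the TOM complex overlapped between the groups throughout. Tomm20, the receptor for cleavable targeting sequences, was at 96.5, 81.2 and 86.8 FPKM in KO1 to KO3 and at 82.9, 86.7 and 82.9 FPKM in WT1 to WT3. Tomm70a, the receptor that takes carrier proteins from cytosolic chaperones, averaged 25.7 ± 3.06 FPKM in KO and 25.7 ± 1.90 FPKM in WT, the closest match of the 4. Tomm22, a receptor that also organises the complex, averaged 26.0 ± 1.56 FPKM in KO and 29.0 ± 2.22 FPKM in WT. Tomm40, the barrel that forms the channel, averaged 13.1 ± 1.21 FPKM in KO and 14.1 ± 1.15 FPKM in WT. Together these 4 genes summed to 153 ± 8.84 FPKM in KO and 153 ± 2.26 FPKM in WT.

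Tomm7 was the import gene that differed most. It encodes a small subunit that tunes the stability of the TOM complex and is needed to hold the kinase Pink1 there on damaged mitochondria. Its level was 7.41, 7.64 and 6.74 FPKM in KO1 to KO3, against 10.4, 11.98 and 11.8 FPKM in WT1 to WT3. All KO libraries were below all WT libraries, at a ratio of means of 0.638, with 137 reads per KO library and 220 per WT library on average. The log2 fold change was -0.58 (SE 0.10) and the adjusted p 0.302. Tomm7 (ENSMUSG00000028998) lies, in the coordinates of the table (GRCm38 in the submitters' processing notes), on the minus strand of chromosome 5 from 23838944 to 23844161 and overlaps no other gene in the table.

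Tomm5, another small TOM subunit, was at 17.4, 16.1 and 21.5 FPKM in KO1 to KO3 and at 18.5, 21.2 and 20.1 FPKM in WT1 to WT3, with overlap and a log2 fold change of -0.12. As a share of the Tomm7 and Tomm5 levels added together, Tomm7 made up 28.6 ± 4.25% in KO and 36.4 ± 0.51% in WT, and of Tomm7 and Tomm40 added together it made up 35.6 ± 0.70% in KO and 44.8 ± 3.76% in WT. Neither share overlapped between the groups, and each had a two-sided exact permutation p of 0.1, the smallest that 3 against 3 allows (0.4 after Benjamini-Hochberg adjustment over 12 pairs of members). These pairs were chosen with the levels of Tomm7 known. Tomm6 was listed at 0 in all KO libraries and at 0.05, 0.06 and 0.05 FPKM in WT1 to WT3, 1 read in each. Tomm6 shares 1648 bases with Gm21981, a protein-coding entry on the same strand, which was itself at 0.04 to 0.13 FPKM in KO and 0.06 to 0.09 FPKM in WT. The sources used here do not say how reads that fit both genes were counted, and no level of Tomm6 is read from these values.

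Tomm34, a cytosolic co-chaperone that binds Hsp70 and Hsp90, was at 24.99, 27.7 and 25.2 FPKM in KO1 to KO3, against 28.8, 30.4 and 29.98 FPKM in WT1 to WT3. The groups did not overlap, and the log2 fold change was -0.19 (SE 0.09, adjusted p = 0.379). The start of Tomm34 shares 848 bases with Stk4 on the opposite strand. Whether counting used strand is not given, so reads there could belong to either gene. The paralog Tomm40l was at 2.97 ± 0.48 FPKM in KO and 3.42 ± 0.37 FPKM in WT, which made up 18.4 ± 2.34% and 19.6 ± 2.86% of the summed Tomm40 and Tomm40l level in those groups. Tomm20l, a paralog of Tomm20, had 0 or 1 read in each KO library and 0 to 2 in each WT library.

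**Figure D2:**
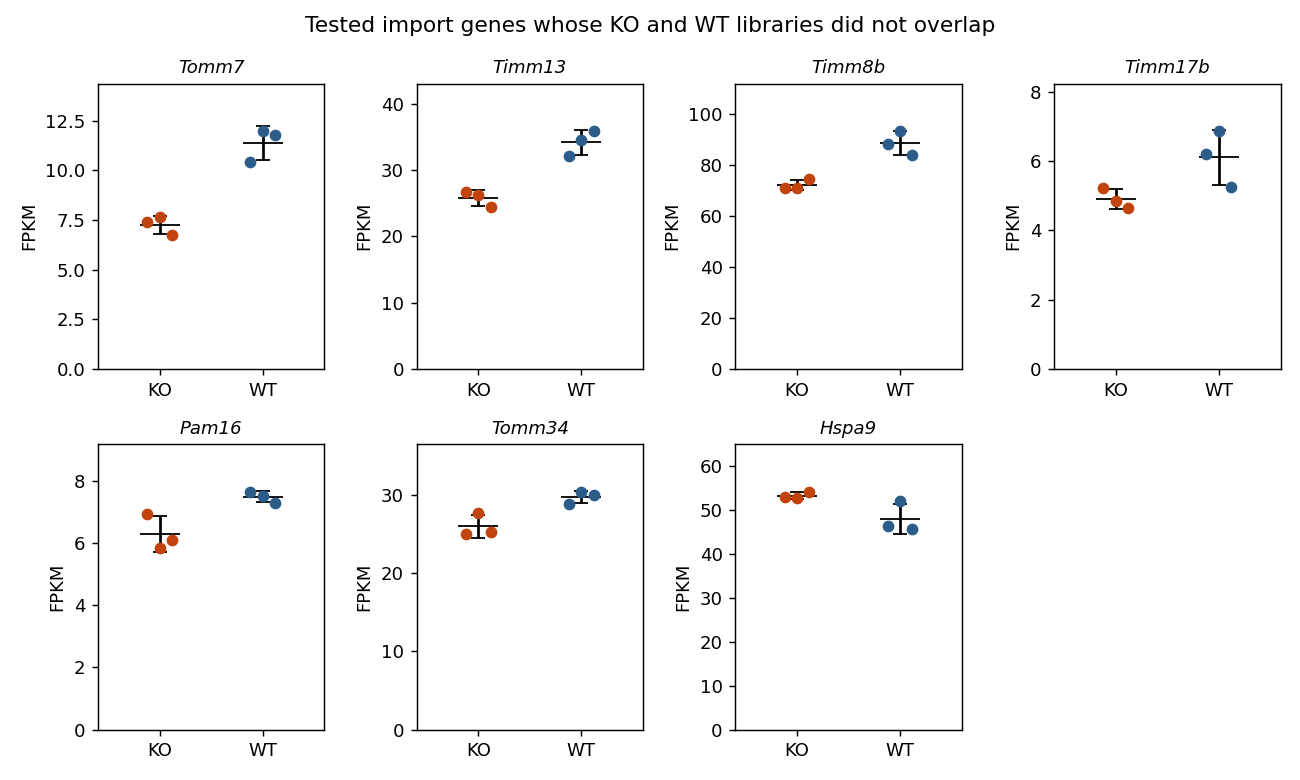
FPKM by library for the 7 tested import genes whose KO and WT libraries did not overlap, each on its own linear axis from 0. Points are libraries, and the bar and whiskers are the mean and SD of 3 libraries; Tomm7 has the widest gap relative to its level, and Hspa9 is the gene with KO above WT.

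The SAM complex, which inserts barrel proteins into the outer membrane, did not separate. Its core, Samm50, was at 12.6 ± 0.37 FPKM in KO and 12.9 ± 0.95 FPKM in WT. The metaxins, its partners on the cytosolic face, leaned the other way from Tomm7, with Mtx1 at 5.98 ± 0.40 FPKM in KO and 5.43 ± 0.66 FPKM in WT and Mtx2 at 7.01 ± 0.60 FPKM in KO and 6.25 ± 0.41 FPKM in WT. Both metaxins overlapped between the groups.

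Among the small TIM chaperones, which escort hydrophobic precursors through the intermembrane space, Timm8b and Timm13 were the members without overlap. Their proteins belong to the Timm8-Timm13 chaperone. Timm13 was at 26.7, 26.3 and 24.3 FPKM in KO1 to KO3, against 32.2, 34.5 and 35.9 FPKM in WT1 to WT3. Timm8b was at 71.1, 71.1 and 74.3 FPKM in KO1 to KO3, against 88.2, 93.2 and 83.8 FPKM in WT1 to WT3. All KO libraries of both genes were therefore below all WT libraries. The log2 fold change was -0.39 (SE 0.09, adjusted p = 0.302) for Timm13 and -0.29 (SE 0.09, adjusted p = 0.303) for Timm8b. With the trend with gene length removed, that of Timm8b was -0.17. Timm13 lies on chromosome 10 from 80899450 to 80900969 and Timm8b on chromosome 9 from 50603910 to 50605320.

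Timm13 made up 26.3 ± 1.43% of the summed Timm13 and Timm8b level in KO and 27.9 ± 1.80% in WT, and these shares overlapped. Timm8a1, the X-linked alternative partner of Timm13, overlapped between the groups. It was at 3.43, 3.98 and 4.53 FPKM in KO1 to KO3 and at 3.61, 3.95 and 4.63 FPKM in WT1 to WT3. Timm8b made up 94.8 ± 0.58% of the Timm8a1 and Timm8b level in KO and 95.6 ± 0.71% in WT, with overlap (exact permutation p = 0.2, adjusted 0.48). Timm8a2 was listed at 0 in all 6 libraries. Timm10 and Timm9, which form the other chaperone of this space, overlapped between the groups. Timm10 was at 11.5 ± 0.55 FPKM in KO and 13.1 ± 1.46 FPKM in WT, and Timm9 at 5.41 ± 0.36 FPKM in KO and 5.76 ± 0.49 FPKM in WT. Timm10b, the form that docks the chaperone on TIM22, was at 2.47 ± 0.46 FPKM in KO and 2.05 ± 0.27 FPKM in WT, also with overlap. Added up, the 7 small TIM genes came to 120.4, 119.9 and 124 FPKM in KO1 to KO3 and to 145, 154 and 144 FPKM in WT1 to WT3, a sum in which Timm8b and Timm13 carry most of the weight.

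Genes of the TIM22 translocase, which inserts metabolite carriers, overlapped. Its channel gene Timm22 was at 7.55 ± 0.24 FPKM in KO and 8.48 ± 1.18 FPKM in WT, and Timm29, a subunit of animal TIM22, at 26.6 ± 1.78 FPKM in KO and 27.8 ± 3.11 FPKM in WT.

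In the TIM23 translocase, which passes proteins with a cleavable targeting sequence, the 2 forms of the Timm17 subunit differed in pattern. Timm17b, on the X chromosome from 7899357 to 7908351, was at 5.21, 4.85 and 4.65 FPKM in KO1 to KO3, against 6.19, 6.86 and 5.26 FPKM in WT1 to WT3. The groups did not overlap, by a margin of KO1 at 5.21 against WT3 at 5.26, and the log2 fold change was -0.26 (SE 0.11, adjusted p = 0.357). Timm17a was at 8.99, 8.75 and 8.65 FPKM in KO1 to KO3 and at 8.41, 9.86 and 8.30 FPKM in WT1 to WT3, with full overlap. Timm17b made up 36.7%, 35.7% and 35.0% of the summed Timm17 level in KO1 to KO3, against 42.4%, 41.0% and 38.8% in WT1 to WT3. Every KO share was below every WT share, with an exact permutation p of 0.1 (0.4 adjusted over the 12 pairs). The listed lengths differ, at 2557 bases for Timm17b and 7893 bases for Timm17a. Before correction for gene length, the log2 fold changes were -0.26 for Timm17b and -0.0047 for Timm17a. After it they lay closer together, at -0.19 for Timm17b and -0.09 for Timm17a. The part of length in the shares was not tested.

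The other TIM23 genes among the members overlapped between the groups. Timm23, the channel, was at 11.2 ± 2.17 FPKM in KO and 11.6 ± 2.02 FPKM in WT, and Timm50, the receptor that hands over precursors from TOM, at 10.3 ± 0.31 FPKM in KO and 10.8 ± 1.62 FPKM in WT. Timm21, which links TIM23 to TOM and to respiratory complexes, had the widest relative spread of these genes, at 3.47, 4.78 and 6.42 FPKM in KO1 to KO3 and 4.63, 3.89 and 6.76 FPKM in WT1 to WT3. It was highest in the libraries numbered 3 in both groups.

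Among members without overlap between the groups, the import motor held 1 higher and 1 lower in KO. Hspa9, the mitochondrial Hsp70 that pulls precursors inward, was at 52.9, 52.6 and 54.0 FPKM in KO1 to KO3, against 46.2, 51.9 and 45.6 FPKM in WT1 to WT3. It was the 1 import gene with all KO libraries above all WT libraries, although KO2 and WT2 lay close, and the log2 fold change was 0.15 (SE 0.10, adjusted p = 0.478; 0.08 with sample weights). Pam16, a J-like protein that restrains the co-chaperone of Hspa9, was at 6.93, 5.85 and 6.08 FPKM in KO1 to KO3, against 7.64, 7.51 and 7.30 FPKM in WT1 to WT3. The log2 fold change of Pam16 was -0.22 (SE 0.10, adjusted p = 0.353), or -0.14 with the length trend removed. Most of its span, 8461 bases, is shared with Glis2 on the opposite strand, which was at 2.47 FPKM in KO and 2.42 FPKM in WT on average.

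The remaining motor genes overlapped. Grpel1, the nucleotide exchange factor of Hspa9, was at 8.64 ± 1.04 FPKM in KO and 9.41 ± 0.63 FPKM in WT, and Timm44, which tethers Hspa9 to the channel, at 9.16 ± 1.32 FPKM in KO and 9.48 ± 0.64 FPKM in WT. Of the J proteins that stimulate Hspa9, Dnajc15 was at 9.34 ± 1.56 FPKM in KO and 8.25 ± 0.74 FPKM in WT, and Dnajc19 at 2.84, 3.18 and 3.47 FPKM in KO1 to KO3 and 2.77, 2.85 and 4.46 FPKM in WT1 to WT3, high in WT3. A Dnajc19 pseudogene entry on chromosome 16 from 20583109 to 20583424, AC087898.4, was at 4.43, 3.65 and 3.84 FPKM in KO1 to KO3, against 0.34, 0.39 and 1.31 FPKM in WT1 to WT3. It was looked up because reads can be shared between a gene and its pseudogene copies, though no sequences were compared here. Dnajc19 also shares 14303 bases with Fxr1 on the opposite strand, at 7.98 FPKM in KO and 8.11 FPKM in WT on average. The value of Dnajc19 is therefore uncertain. The groups did not overlap at AC087898.4, on 21 reads per KO library and 3.67 per WT library (log2 fold change 1.61, SE 0.22, adjusted p = 0.302). A further pseudogene, Dnajc19-ps, was at 2.96 ± 1.199 FPKM in KO and 2.25 ± 1.09 FPKM in WT, with overlap.

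Pmpca and Pmpcb, the subunits of the peptidase that removes targeting sequences in the matrix, overlapped between the groups. Pmpca was at 17.6 ± 0.87 FPKM in KO and 16.4 ± 0.95 FPKM in WT, and Pmpcb at 6.93 ± 0.23 FPKM in KO and 7.61 ± 1.09 FPKM in WT.

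**Figure D3:**
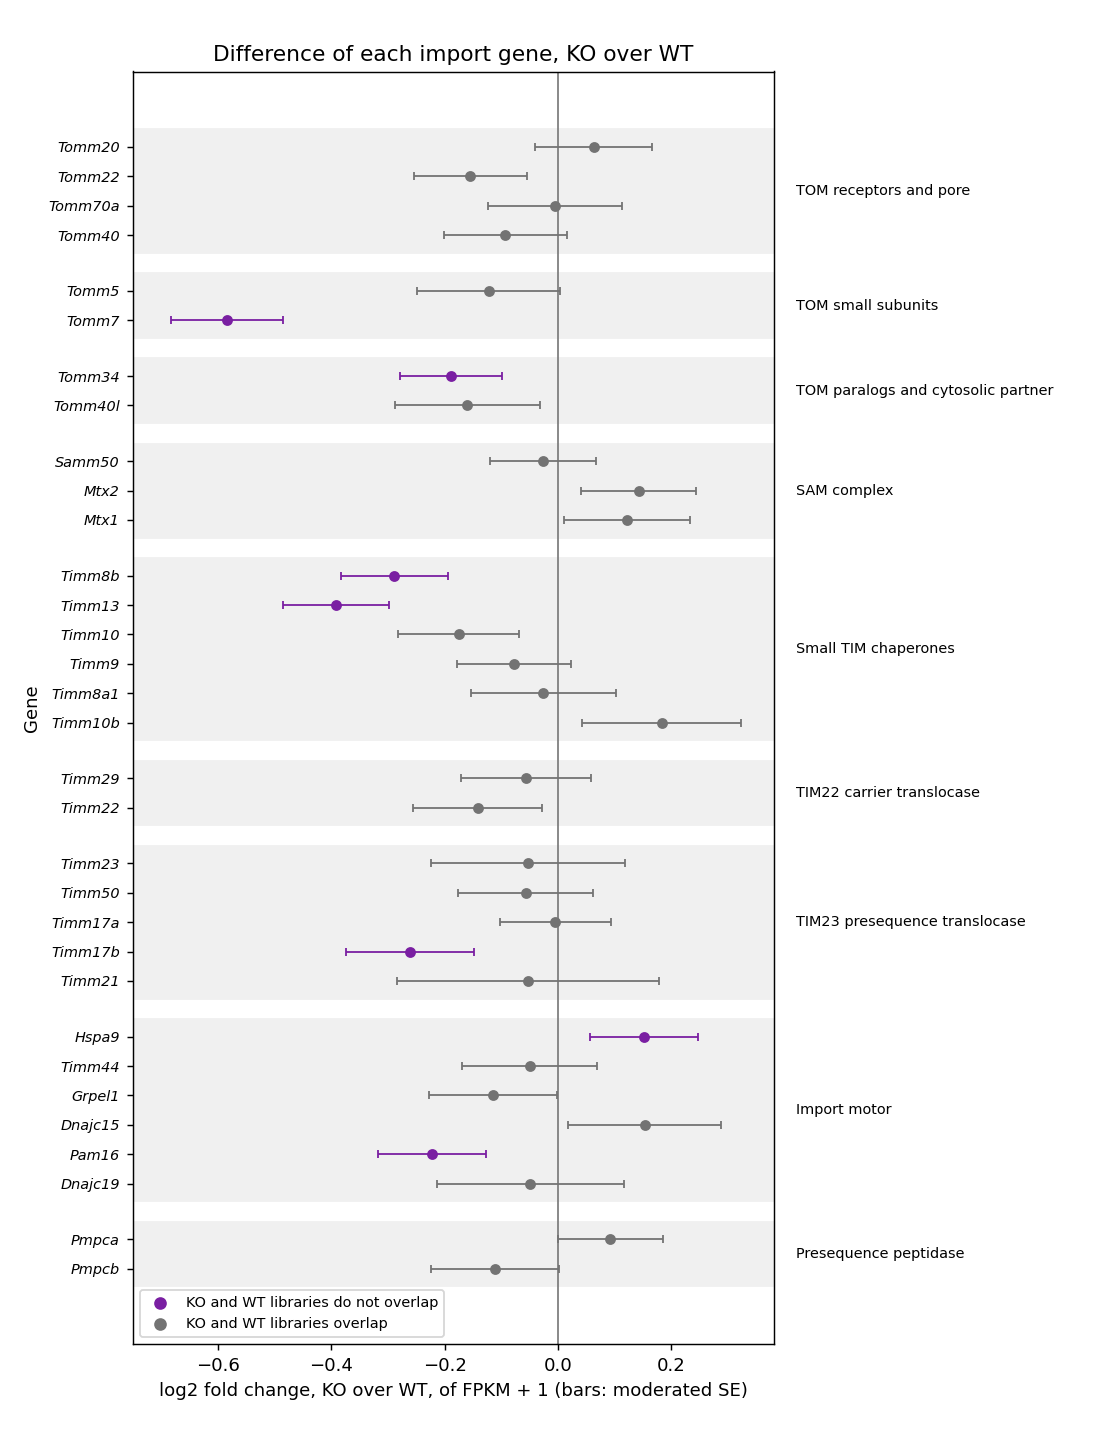
Log2 fold change of KO over WT for the 32 tested import genes in the same order of complexes, with moderated SE as bars and genes without overlap between the groups in purple. Tomm7 lies farthest left at -0.58, Timm13 follows at -0.39, and most genes have bars that reach or nearly reach 0.

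Gene length ran alongside these differences. Across the 32 import genes the log2 fold change had a Spearman correlation of 0.58 with gene length, and across the 11815 tested protein-coding genes it was 0.405; all points share the same 6 libraries. All 9 import genes under 2000 bases were lower in KO on average (median -0.15, 3 without overlap), as were 76.3% of 1503 protein-coding genes of that length (median -0.19, 26.4% with all KO below all WT). Among import genes of 2000 bases and over, 16 of 23 were lower on average with a median of -0.05, where 45.0% of 10312 protein-coding genes were lower and their median was 0.03. Set against the middle 50% of protein-coding genes in their own length class, 22 import genes lay within it, 6 below (Tomm7, Timm13, Tomm34, Timm17b, Tomm40l and Pmpcb) and 4 above (Hspa9, Mtx1, Mtx2 and Timm10b). Timm8b, at -0.29, was near the median of -0.25 for genes under 1000 bases, whereas Tomm7, at -0.58, was below the lower quartile of -0.32 for genes of 1000 to 2000 bases. With the length trend removed, the log2 fold change of Tomm7 was -0.45, and 20 of 32 import genes were negative. What part of the differences follows length was not tested.

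**Figure D4:**
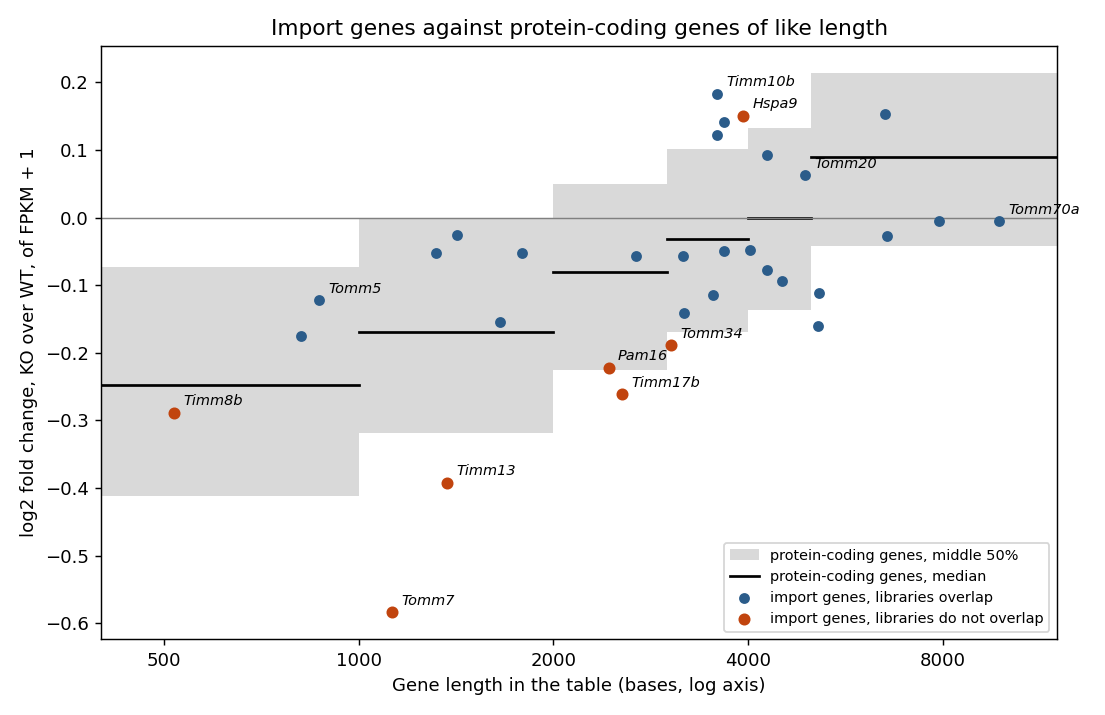
Log2 fold change of KO over WT against gene length (log axis) for the 32 tested import genes as points, over the median (line) and middle 50% (band) of protein-coding genes in 6 length classes, the last of which holds all genes of 5000 bases and over. The medians of the classes under 4000 bases lie below 0, and Tomm7 and Timm13 lie below the band of their class.

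Other nuclear genes of mitochondria give the setting. Of 77 tested genes of the mitochondrial ribosome 58 were lower on average (median -0.11), and of 46 Nduf genes, which encode complex I subunits and assembly factors, 40 were lower (median -0.17). None of either passed an adjusted p of 0.05 (0 of 77 and 0 of 46). The import genes, at a median of -0.06 with a median length of 3555 bases, lay closer to 0 than these sets, whose median lengths were 2255 and 1635 bases. With the length trend removed, the medians were -0.04 for the import genes, -0.06 for the ribosomal genes and -0.09 for the Nduf genes; the difference between the sets was not tested.

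Around the import machinery, 69 tested genes of 8 companion lists gave 37 lower and 32 higher on average (median -0.01), and 0 passed in either direction. Over all tested genes 48.7% were lower. All KO libraries lay below all WT libraries for 7 of the 69, against 10.1% of all tested genes, and above for 3, against 11.9%. The lists below are short, and their leanings were not tested. Genes listed under membrane insertion, not all of them insertases, leaned lower for 6 of 7. Their median was -0.10, or -0.04 with the length trend removed. Romo1, a small inner membrane protein, was at 9.45, 12.4 and 11.8 FPKM in KO1 to KO3, against 16.8, 16.9 and 16.2 FPKM in WT1 to WT3, and Mtch1, of an outer membrane insertase family, at 122, 110.4 and 92.9 FPKM in KO1 to KO3, against 177, 151 and 132 FPKM in WT1 to WT3. Neither gene overlapped between the groups. Their log2 fold changes were -0.54 (SE 0.12, adjusted p = 0.302) for Romo1 and -0.50 (SE 0.15, adjusted p = 0.303) for Mtch1.

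Quality control proteases were lower on average for 8 of 11, with no overlap for Clpp, a matrix protease at 24.95 ± 1.73 FPKM in KO and 31.8 ± 1.04 FPKM in WT, and for Phb, an inner membrane scaffold at 21.4 ± 1.01 FPKM in KO and 27.6 ± 3.92 FPKM in WT. Matrix chaperones were lower for 6 of 9, led by Hspe1, the co-chaperonin, at 19.9 ± 3.01 FPKM in KO and 25.8 ± 2.89 FPKM in WT, and by Hscb, an iron-sulphur co-chaperone, at 2.69 ± 0.82 FPKM in KO and 3.82 ± 0.59 FPKM in WT, both with overlap. Genes of oxidative folding in the intermembrane space were lower for 3 of 3, with Chchd4, its import receptor, at 5.51 ± 0.36 FPKM in KO and 6.66 ± 1.49 FPKM in WT, and Gfer, which reoxidises it, at 7.37 ± 0.83 FPKM in KO and 8.06 ± 1.03 FPKM in WT. Other peptidases were lower for 4 of 6, among them Pitrm1 at 5.58 ± 0.37 FPKM in KO and 6.11 ± 0.48 FPKM in WT and Immp2l at 1.40 ± 0.29 FPKM in KO and 1.66 ± 0.16 FPKM in WT. These last 4 genes overlapped between the groups. With the length trend removed, the log2 fold change of Clpp went from -0.34 to -0.21. The median of the oxidative folding genes went from -0.11 to -0.02, and that of the quality control proteases from -0.06 to -0.07.

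Cytosolic targeting factors were higher on average for 11 of 14 (median 0.09). Dnajb6, a cytosolic J protein, was at 22.7 ± 0.62 FPKM in KO and 19.5 ± 1.81 FPKM in WT, and Btf3, of the nascent chain complex, at 38.3 ± 1.62 FPKM in KO and 42.8 ± 2.92 FPKM in WT, each without overlap. For Btf3 the margin was narrow, with KO3 at 40.03 FPKM against WT3 at 40.09 FPKM. Of the genes of MICOS, which shapes the cristae, and its bridge to SAM, 4 of 7 were higher, with Immt at 10.7 ± 0.19 FPKM in KO and 9.22 ± 0.93 FPKM in WT, without overlap, and Mtx3 at 7.79 ± 0.30 FPKM in KO and 6.81 ± 0.93 FPKM in WT. Of 12 factors of mitochondrial biogenesis and stress, 8 were higher on average. Ppargc1a, a coactivator of mitochondrial genes, was at 10.4, 9.94 and 9.22 FPKM in KO1 to KO3, against 5.10, 8.11 and 6.59 FPKM in WT1 to WT3, without overlap (log2 fold change 0.53, SE 0.15, adjusted p = 0.302). Atf5, a factor of the mitochondrial stress response, was at 10.6 ± 0.35 FPKM in KO and 12.7 ± 0.89 FPKM in WT, also without overlap. Nrf1 and Tfam, chosen after their values were seen, were level, at 1.41 ± 0.09 and 7.63 ± 0.32 FPKM in KO and 1.43 ± 0.16 and 7.64 ± 0.54 FPKM in WT.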

How the data were processed

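FPKM values per gene for 6 libraries were used as the authors deposited them; the unit was taken from the deposited table and its values. GRCm38 and mm10 are named in the submitters' processing notes, and positions are those of the table. Not given in the sources used here: aligner, counter, annotation release and use of strand. Libraries were grouped by their titles. FPKM multiplied by gene length and by a library size implied by the smallest step of each library gave whole reads for 100% of values (tolerance 0.01 reads).

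KO was compared with WT for genes with a mean of at least 1 FPKM, with limma 3.58.1 in R 4.3.3 on log2(FPKM + 1), its moderated two-sided test (variance trend on) and Benjamini-Hochberg adjustment over all 13087 tested genes. A fold change on this scale understates the change of low genes. The fit was run on simulated data, with no result given here. How many differences the fit misses or calls wrongly in these libraries was not tested. Deviations from group means correlated across genes at 0.17, 0.15 and 0.33 between libraries numbered 1, 2 and 3. Each lay above a fixed limit of 0.1, but the labels state no pairing. Between libraries of unlike number the correlations ran from -0.38 (KO3 with WT2) to 0.28 (KO1 with WT2). Deviations within a group cancel out, so these correlations are not independent of each other. The fit as reported holds no block for replicate number, so its p-values treat the libraries as unpaired. The block is an alternative. For 1 gene or share, 3 against 3 gives no exact permutation p below 0.1.

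Members and gene lists were chosen with earlier results of these data known. Values per library, fold change and adjusted p are given for members without overlap between the groups or with an unadjusted p under 0.05. Up to 2 genes of smallest p are named per companion list, most of them by mean and SD. The companion lists held 71 genes, 69 of them tested. Paralog and partner shares were computed from FPKM over 12 pairs. Of the 35 members, 17 overlap a protein-coding gene on the opposite strand. Sequences are not used here.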

Additional observations from a re-analysis of the deposited data

How the results depend on the processing

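Results were recomputed under 19 alternatives, 2 of them added after the data were seen (voom on recovered reads, and leaving out both libraries numbered 3, which had the highest striatal marker sums). The edgeR and DESeq2 fits that had been planned for deposited counts were not run on these FPKM values; voom on the recovered reads was run instead. No import gene passed an adjusted p of 0.05 in any of the 19 (0 in each; 1 to 6 at an unadjusted p under 0.05), and the smallest adjusted p was 0.0884, for Tomm7 with sample weights. Each of the 7 members given with a fold change kept its direction in every alternative in which it was fitted (133 of 133 values), between -0.64 and -0.45 for Tomm7 and between -0.43 and -0.26 for Timm13. That direction was largely fixed in advance, because the 7 were members without overlap. Leaving libraries out could not reverse it, and the block and the filters left the fold change as it was. The median of the import genes, -0.06, was -0.0029 with a common sum, and the cause was not tested. It lay between -0.11 (without WT3) and -0.048 (without WT1) when 1 library was left out, at -0.10 without KO3, -0.09 without WT2 and -0.09 without KO1. With the replicate block the median was -0.06. Over all genes, 1 passed, and 0 passed with no filter, quantile normalization, no variance trend, the replicate block, the length trend removed with or without that block, and both libraries numbered 3 left out. With 1 library left out 0 to 9 passed, the 9 without WT3. WT3 also had the highest sum of 2 blood markers, at 396 FPKM, where KO libraries had 155 to 173 FPKM and WT1 had 124 FPKM. Its share of reads on genes of mitochondrial DNA was the highest too, at 8.34%, with 4.10% (KO1) to 6.31% (KO3) in the others. The part of these traits in the counts was not tested. Beside these counts of 0, genes of unadjusted p under 0.05 numbered 2487 (no filter), 1940 (quantile normalization), 1826 (no variance trend), 2327 (block), 1528 and 1970 (length trend removed, without and with the block) and 1882 (both libraries numbered 3 left out), against 1872 in the fit as reported. The block changed no call of an import gene. Among tested import genes, Timm8a1 had the fewest reads (94.7 per KO library and 99.0 per WT library), which limits its precision.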

Other observations

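The import genes on the X chromosome are Timm17b and Timm8a1 (2 of 35). Timm17b was at 4.90 ± 0.29 FPKM in KO and 6.10 ± 0.80 FPKM in WT, without overlap, while Timm8a1, at 3.98 ± 0.55 FPKM in KO and 4.06 ± 0.52 FPKM in WT, overlapped.

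Tomm40 lies next to Apoe, the lipid carrier of glia, on the same strand of chromosome 7, with 2124 bases between the genes. Apoe, looked up after its values were seen, was at 423, 398 and 363 FPKM in KO1 to KO3, against 678, 587 and 680 FPKM in WT1 to WT3, without overlap. Tomm40 was at 13.6, 14.0 and 11.8 FPKM in KO1 to KO3 and at 15.3, 13.9 and 13.0 FPKM in WT1 to WT3, with overlap. The difference between these neighbours was not tested.

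Pink1, the kinase whose hold on TOM depends on Tomm7, was also chosen after its values were seen. It was at 163, 158 and 119.9 FPKM in KO1 to KO3 and at 121, 146 and 166 FPKM in WT1 to WT3, with full overlap.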
